A study of Mus musculus with 8 samples.

Results

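The ADAM, ADAMTS and ADAMTSL genes encode a family of cell-surface and secreted metalloproteinases and their protease-free relatives. Their RNA was measured in sorted lymphatic endothelial cells of the mouse ear. Members were all genes named Adam, Adamts or Adamtsl with a number that were measured by a probe set naming exactly 1 gene, and there were 48 of them among 18193 genes, namely 28 ADAM, 15 ADAMTS and 5 ADAMTSL genes. Inflamed samples came from female FVB mice of 8 to 10 weeks that were sensitised with 2% oxazolone, a contact allergen, and challenged 5 days later with 1% oxazolone, 10 µl on each side of the ears, to give contact hypersensitivity. Cells were isolated 24 hours later. The untreated samples are from healthy female FVB mice of the same ages. Each of the 4 inflamed and 4 untreated samples was a pool of cells from 3 mice sorted for CD31 and podoplanin and against CD45, and sorting and RNA extraction of both samples of a pair shared a day.

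ADAM proteins sit in the plasma membrane, where the active ones cut off the outer parts of other surface proteins, a step called shedding, and so release growth factors, cytokines and adhesion molecules. ADAMTS proteases are secreted and bind the matrix through thrombospondin repeats. One branch of them cleaves the large proteoglycans aggrecan and versican, and others process procollagen, cartilage oligomeric matrix protein or fibrillin microfibrils. ADAMTSL proteins share the thrombospondin repeats, lack a protease domain and bind microfibrils.

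Levels are log2 of the authors' array signal and changes are inflamed minus untreated on that scale, tested with limma over 10843 genes. A gene passed at a Benjamini-Hochberg adjusted p under 0.05. A probe set counts as above background on an array where it exceeded the 95th percentile of unspiked bacterial control probe sets, which lay between 2.53 and 3.31. Levels of different genes are not compared, because each probe set has its own response. In RNA pooled from sorted cells, a change in the make-up of the cells and a change in RNA per cell cannot be told apart.

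In inflamed skin, 3 secreted proteoglycan-cleaving proteases, Adamts4, Adamts1 and Adamts5, and the membrane protease Adam9 rose, and the related Adamts15 fell. Of the 9 tested ADAMTS genes, 3 were higher and 1 lower, where 3.91% of all tested genes were higher and 3.02% lower. Of the 11 tested ADAM genes, 1 was higher and 0 lower in limma, and 4 had an unadjusted p under 0.05, against 22% of all tested genes. Of the 3 tested ADAMTSL genes, 0 passed in either direction in limma, and 1 had an unadjusted p under 0.05. The median change was 0.08 over the ADAM, 0.87 over the ADAMTS and 0.90 over the ADAMTSL genes tested, beside -0.09 over all 10843 genes. With 3 genes tested, the ADAMTSL median is the change of Adamtsl1 alone, which was 0.26 when averaged over its tested probe sets. The other 25 members had mean levels under the filter of 3.30 and were not tested. Of the 23 that were, Adam11, Adam22 and Adamts15 had a mean in inflamed samples under that filter and entered through the untreated samples. Without the intensity trend in the variance model, Adamts4 was the one member that passed.

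**Figure D1:**
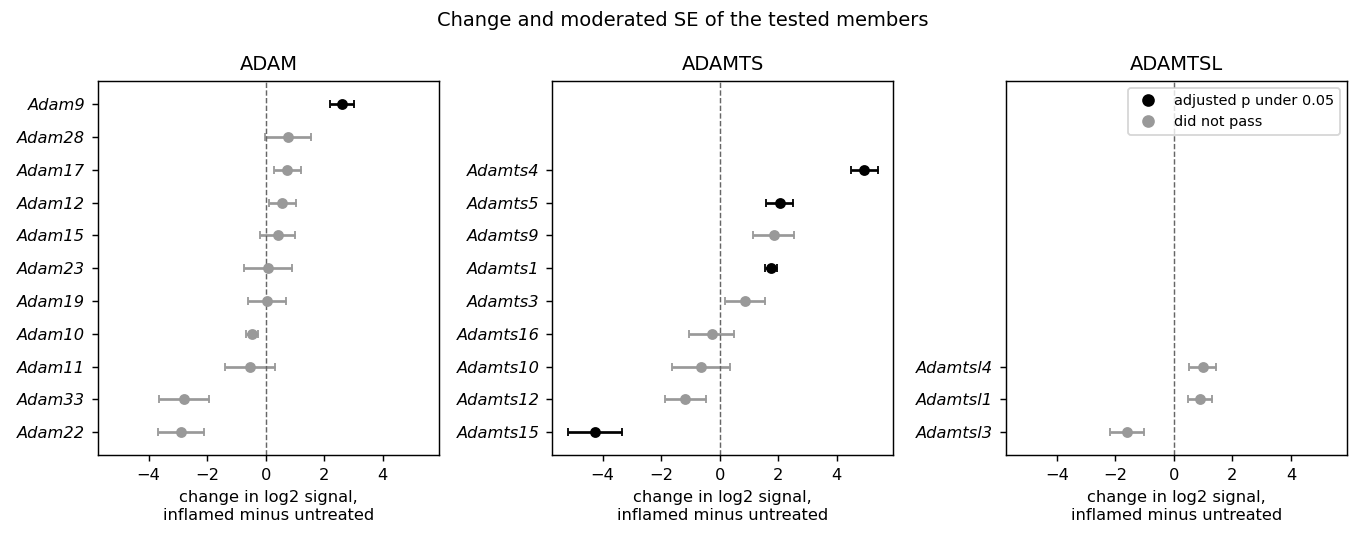
Change in log2 signal (inflamed minus untreated, horizontal axis) of the 23 tested members by group, with bars of 1 moderated standard error. Black points passed at an adjusted p under 0.05: Adam9, Adamts4, Adamts5 and Adamts1 lie to the right of 0 and Adamts15 to the left.

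The ADAMTS proteases come first, beginning with those that cleave aggrecan and versican. Adamts4, the protease known as aggrecanase 1, stood at 11.24, 10.77, 10.44 and 11.18 in inflamed samples 1 to 4, against 4.72, 6.22, 6.69 and 6.24 in untreated samples 1 to 4. All inflamed values lay far above all untreated ones, and the difference within pairs was between 3.74 and 6.52. Adamts4 averaged 10.91 ± 0.38 in inflamed samples and 5.97 ± 0.86 in untreated samples (SD, n = 4 each), a rise of 4.94 ± 0.46 (SE), or 30.6-fold (limma adjusted p = 0.00058). Its second probe set gave 4.72 ± 0.57 in a fit of each probe set on its own (limma adjusted p = 0.00154), so both probe sets of the gene showed a rise of about the same size.

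Adamts1, which also cleaves versican and is known as an inhibitor of blood vessel growth, stood at 11.34, 11.31, 11.02 and 11.75 in inflamed samples, against 9.86, 9.91, 9.05 and 9.54 in untreated samples. The groups did not overlap, and both were narrow. The rise was 1.77 ± 0.20 (SE), or 3.40-fold, with means of 11.36 ± 0.30 in inflamed samples and 9.59 ± 0.39 in untreated samples (SD, n = 4 each; limma adjusted p = 0.00154). Without the intensity trend its adjusted p was 0.0914.

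Adamts5, the other main aggrecanase and the next protein-coding gene after Adamts1 on chromosome 16, stood at 9.49, 9.05, 9.13 and 8.72 in inflamed samples, against 6.03, 7.23, 7.43 and 7.54 in untreated samples. Here too the groups did not overlap, with the widest gap in pair 1. The rise was 2.04 ± 0.45 (SE), or 4.11-fold (limma adjusted p = 0.0283). The call ended without pair 1 (adjusted p = 0.101), without pair 2 (0.0833), without pair 3 (0.09) and without the intensity trend (0.12). Of its other probe sets that were bright enough to test, 1 differed by 1.75 ± 0.45 and 1 by 2.02 ± 0.53 without passing (limma adjusted p = 0.0541 and 0.0556), and both were higher in all 4 pairs.

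The promoter of Adamts1 is shown as that of a member that rose, from 250 bases before to 50 after the start, as RefSeq gives it on GRCm38.p6 (chr16:85803064-85803363, minus strand, 5′ to 3′), with a TATA box in capitals.
Adamts1: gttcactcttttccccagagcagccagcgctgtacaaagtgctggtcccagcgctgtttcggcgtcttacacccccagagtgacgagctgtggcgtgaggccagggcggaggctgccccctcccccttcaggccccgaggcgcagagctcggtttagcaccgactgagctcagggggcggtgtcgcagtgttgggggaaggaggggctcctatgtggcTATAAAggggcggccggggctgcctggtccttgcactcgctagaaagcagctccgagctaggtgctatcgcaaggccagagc
The TATAAA begins at position -32 from the start, and 13.6% of the 32851 promoters in the table hold TATAAA on either strand. The window held 0 matches to TGANTCA (AP-1; 7.81% of promoters), 0 to TTCNNNGAA (GAS; 8.3%), 0 to TGACGTCA (CRE; 1.79%) and 0 to the NF-kB consensus (8.46%), each searched on both strands. Promoters were matched for 24 of the 48 members, as 26 sequences, and 4 of these 26 held TATAAA.

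Adamts9, a versican-cleaving protease that also acts in secretion and in cilia, gave a less even picture. Its brightest probe set stood at 7.81, 8.35, 8.78 and 8.97 in inflamed samples, against 5.55, 8.75, 7.65 and 4.59 in untreated samples. The untreated samples were spread widely, untreated sample 2 lay above 2 of the inflamed ones, and pair 2 went the other way. The change of 1.84 ± 0.70 (SE) did not pass (limma adjusted p = 0.16). Of its other probe sets, 1 rose by 4.14 ± 0.94 (limma adjusted p = 0.0316, in the fit where 3.13% of all tested probe sets were higher) and 1 stood 1.98 ± 0.73 higher without passing (0.156), so the call for Adamts9 depends on the probe set. The probe set that rose by 4.14 was above background on 2 of 4 untreated arrays, so the size of its rise rests in part on values under background.

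Adamts15, a further proteoglycan-cleaving member, moved in the opposite direction. It stood at 3.89, 0.48, 2.45 and 0.92 in inflamed samples, against 5.19, 6.81, 7.002 and 5.82 in untreated samples. Every untreated array was above background and only inflamed sample 1 was, so the size of the fall rests in part on values under background. The measured level fell by 4.27, with an SE of 0.93 (limma adjusted p = 0.0271). The size of the change was -2.10 on log2(signal + 16), which damps low signals, and ran from -5.26 to -3.58 with 1 pair left out. The call ended without pair 2 (adjusted p = 0.11), without pair 3 (0.109), without pair 4 (0.0716), without the intensity trend (0.0889) and with the stricter filter, under which Adamts15 was not tested.

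Adamts8, the remaining proteoglycan-cleaving member with any array above background and the neighbour of Adamts15 on chromosome 9, is named here after its values were seen. It stood at 3.47, 4.34, 4.14 and 3.20 in inflamed samples, against 2.43, 1.76, 0.88 and -0.36 in untreated samples. All 4 inflamed arrays and 0 untreated arrays were above background, which gives a level at least 1.77-fold higher in inflamed samples. Its mean was under the filter, and with no filter its change of 2.61 did not pass (limma adjusted p = 0.128). Adamts20 was above background on 0 of 8 arrays. Of the 7 genes of this branch, 5 were tested, of which 3 were higher, 1 was lower and 1 did not pass. Among all tested genes, 3.91% were higher and 3.02% lower. The other 2 genes of the branch were too dim to test. The branch was drawn up with earlier results of these data known, and Adamts15 entered the test through the untreated samples.

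**Figure D2:**
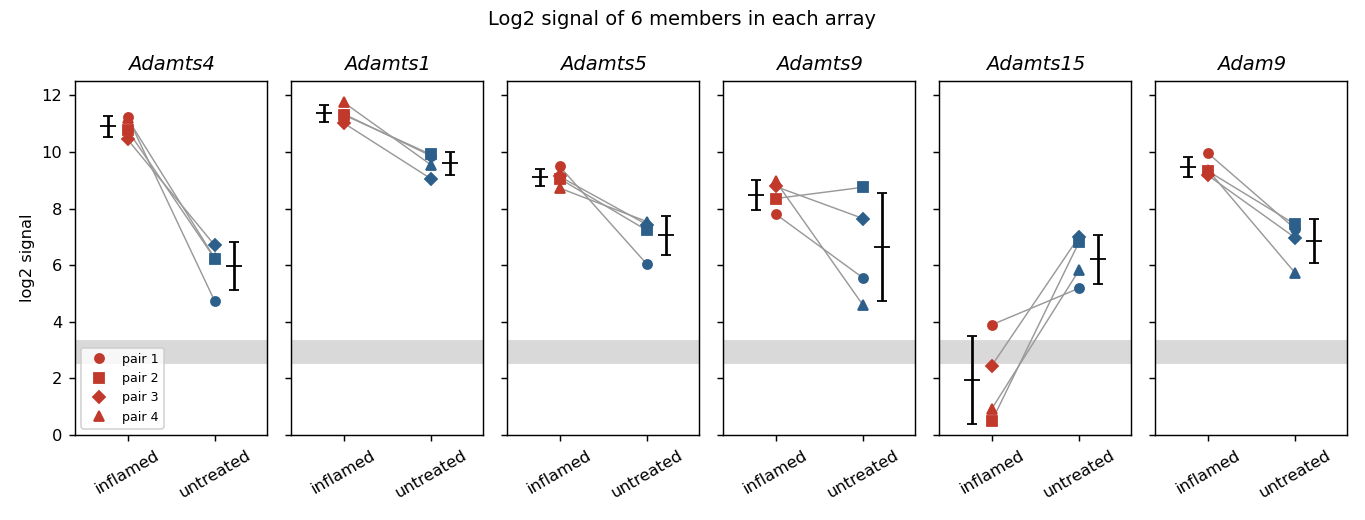
Log2 signal (vertical axis) of 6 members in the 4 inflamed and 4 untreated samples, with lines joining pairs, black bars for the mean and SD and a grey band for the background limits. Adamts4, Adamts1, Adamts5 and Adam9 are higher in every inflamed sample than in any untreated one, Adamts15 is lower, and Adamts9 overlaps.

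The remaining ADAMTS genes showed no call. Adamts3, which processes procollagen and, with the cofactor CCBE1, activates the lymphatic growth factor VEGF-C, averaged 5.30 ± 1.71 in inflamed samples and 4.42 ± 1.08 in untreated samples (SD, n = 4 each). It was higher in 3 of 4 pairs and did not pass (limma adjusted p = 0.511). Adamts12, which cleaves cartilage oligomeric matrix protein, averaged 4.05 in inflamed and 5.23 in untreated samples, lower in 4 of 4 pairs (0.376). Adamts10, which binds fibrillin, ranged from 1.65 to 6.32 in inflamed samples and from 2.47 to 6.67 in untreated samples, and it did not pass (0.765). Adamts16 averaged 4.07 in inflamed and 4.35 in untreated samples, a change whose sign turned under median centring and 2 other normalizations. The dim Adamts6, Adamts7, Adamts18 and Adamts19 were above background on 0 or 1 of 8 arrays each.

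Of the ADAM genes, Adam9, a membrane protease known to shed growth factors of the EGF family, was the one that passed. It stood at 9.96, 9.33, 9.18 and 9.37 in inflamed samples, against 7.29, 7.45, 6.97 and 5.73 in untreated samples. The groups did not overlap, and the difference within pairs was between 1.88 and 3.64. Adam9 rose by 2.60 ± 0.41 (SE), or 6.07-fold, with means of 9.46 ± 0.35 in inflamed samples and 6.86 ± 0.78 in untreated samples (SD, n = 4 each; limma adjusted p = 0.00666). Without the intensity trend the adjusted p was 0.0644. On chromosome 8, Adam9 follows Adam18, Adam3, Adam5 and Adam32, each of which was above background on 0 or 1 of 8 arrays.

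The main sheddases of endothelial surface proteins did not pass. Adam10, which cleaves Notch receptors and VE-cadherin, stood at 10.08, 9.82, 10.20 and 10.26 in inflamed samples, against 10.74, 10.60, 10.53 and 10.37 in untreated samples. Its brightest probe set was lower in every inflamed sample than in any untreated one, yet the difference of -0.47 ± 0.20 (SE) did not pass (limma adjusted p = 0.21), and its other tested probe sets gave -0.29 and -0.72. Adam17, which releases TNF and its receptors, stood at 9.16, 9.05, 9.10 and 7.15 in inflamed samples, against 7.97, 7.11, 8.53 and 7.91 in untreated samples. Inflamed sample 4 lay below the other 3 by a wide margin, and the difference of 0.74 ± 0.47 (SE) did not pass (0.412). The other tested probe sets of Adam17 gave changes of 0.08 and -0.41.

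Groups that do not overlap are a weaker sign than a call. Of the 23 tested members, 5 (Adam9, Adamts1, Adamts4, Adamts5 and Adamtsl1) had every inflamed value above every untreated one, and 3 (Adam10, Adam22 and Adamts15) had every inflamed value below, where 6.3% of all tested genes did so upward and 6.84% downward.

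Adam12, known from fibroblasts and muscle during repair, ranged from 7.73 to 9.08 in inflamed samples and from 6.21 to 9.90 in untreated samples. Its untreated spread covered the whole inflamed range (limma adjusted p = 0.54). Adam15, an endothelial ADAM that binds integrins, averaged 7.19 ± 1.27 in inflamed samples and 6.79 ± 0.45 in untreated samples (SD, n = 4 each), and Adam19 averaged 6.47 ± 1.48 in inflamed and 6.42 ± 0.32 in untreated samples. For these 2 genes the inflamed samples varied more than the untreated ones, and a change of sign under other settings is given with the processing. Adam28, a lymphocyte ADAM, averaged 4.15 in inflamed and 3.40 in untreated samples (0.636).

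Adam33 and Adam22, named after their values were seen, were the members nearest to a call among those that did not pass. Adam33, known from mesenchymal cells of the airways, stood at 2.45, 2.01, 4.33 and 6.62 in inflamed samples, against 6.51, 6.82, 6.51 and 6.78 in untreated samples. The untreated samples lay within a narrow band, while inflamed sample 4 was at the untreated level and inflamed samples 1 and 2 were under background (limma adjusted p = 0.0908). Adam22, which has no protease activity and is known as a receptor of LGI proteins at synapses, stood at 3.33, 2.44, 1.32 and 2.03 in inflamed samples, against 5.32, 4.64, 5.40 and 5.29 in untreated samples. Of the inflamed arrays, 1 of 4 was above background for Adam22, so the size of its difference rests in part on values under background. It did not pass (0.0613), but did without the pair block (0.0348), with the pair as a random block (0.0239) and on log2(signal + 16) (0.0395). These were 3 of 14 settings, and as the mean over probe sets its limma adjusted p was 0.236. For both genes a second probe set differed by less, by -0.63 for Adam33 and by -0.51 for Adam22. Adam11 and Adam23, its relatives without protease activity, differed by -0.54 ± 0.85 and 0.08 ± 0.82 (SE). A probe set of Adam23 too dim to test was above background on 4 of 4 inflamed and 0 of 4 untreated arrays. This split was narrow. Inflamed sample 1 stood at 2.961, against a limit of 2.959 on its array, and untreated sample 4 at 3.163, against 3.314. The probe set was higher in 4 of 4 pairs, while the groups overlapped. Another dim probe set of Adam23 was above background on 2 of 4 arrays in each group.

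**Figure D3:**
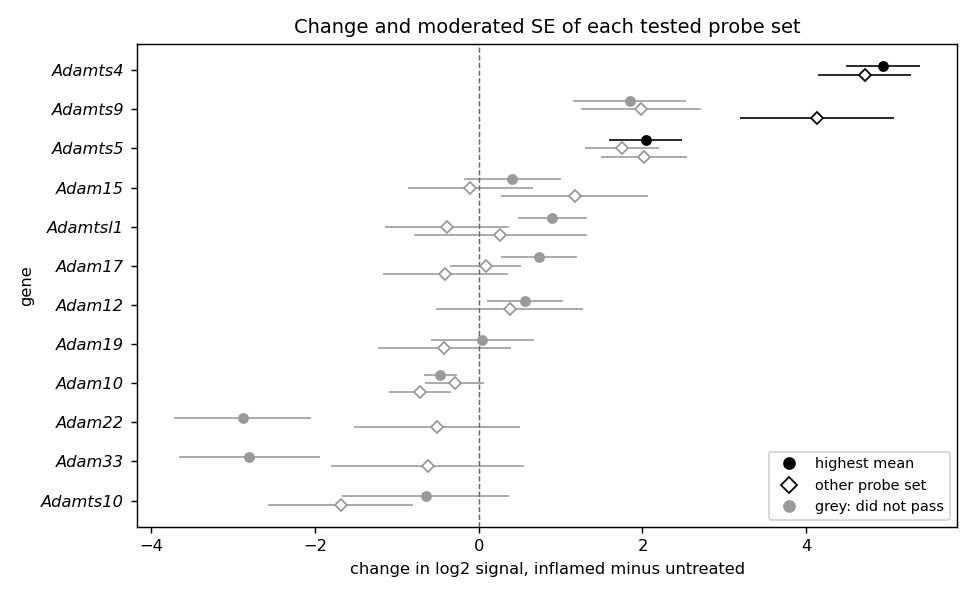
Change in log2 signal (inflamed minus untreated, horizontal axis) of each probe set that passed the filter, for the genes with more than 1 such probe set, with bars of 1 moderated standard error. Filled circles are the probe sets that stand for the gene and black marks passed: those of Adamts4 lie at 4.94 and 4.72, and those of Adamts9 run from 1.84 to 4.14.

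Adam8, a leukocyte ADAM named after its values were seen, was above background on 3 of 4 inflamed and 0 of 4 untreated arrays. It stood at 6.10, 3.23, 2.45 and 4.49 in inflamed samples, against 0.01, 0.12, 2.06 and 3.04 in untreated samples. The groups overlapped, since inflamed sample 3 lay below untreated sample 4. The mean level was at least 2.15-fold higher in inflamed samples, a bound that rests on inflamed sample 1 and was 1.35-fold without it. With no filter the change of 2.76 did not pass (limma adjusted p = 0.192). The 16 ADAM genes known mainly from testis or epididymis, such as the fertilin subunits Adam1a and Adam2, were dim. They were above background in 12 of 128 array readings, and 9 of the 16 were so on no array. Adam4 had the highest single value among them, 5.98 in inflamed sample 4.

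**Figure D4:**
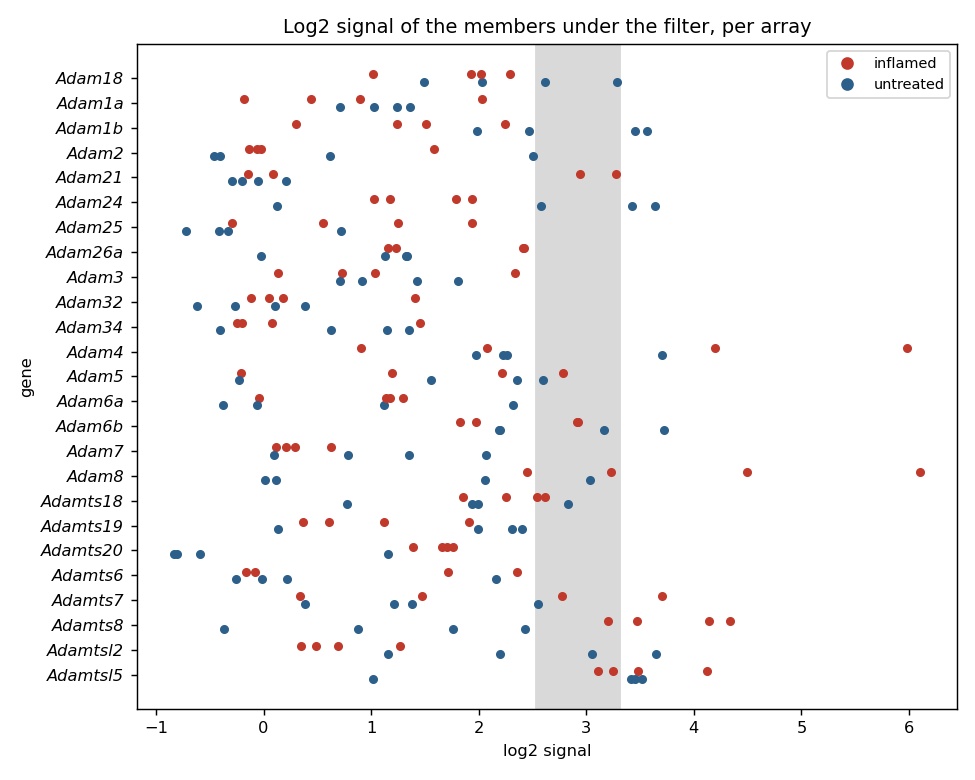
Log2 signal (horizontal axis) of the 25 members under the filter, 1 point per array, with the background limits as a grey band. Most points lie left of the band, while those of Adamts8 in inflamed samples lie in the band or to its right and Adam8 reaches 6.10 in inflamed sample 1.

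No ADAMTSL gene passed. Adamtsl4, whose human counterpart binds fibrillin in the eye, stood at 8.29, 9.11, 7.99 and 8.27 in inflamed samples, against 7.13, 7.35, 8.32 and 6.91 in untreated samples. It was higher in 3 of 4 pairs (0.98 ± 0.45, SE; limma adjusted p = 0.243). Adamtsl1 stood at 8.15, 7.84, 8.38 and 7.63 in inflamed samples, against 6.62, 7.31, 7.56 and 6.92 in untreated samples. The groups did not overlap, but the change of 0.90 ± 0.42 (SE) did not pass (0.256), and a second probe set went the other way, at -0.39. Adamtsl3 stood at 7.66, 5.48, 5.09 and 4.99 in inflamed samples, against 8.24, 8.25, 6.10 and 7.01 in untreated samples. It was lower in all 4 pairs, while the groups overlapped (-1.60 ± 0.57, SE; 0.137). The dimmer Adamtsl5 averaged 3.49 ± 0.45 in inflamed samples and 2.85 ± 1.23 in untreated samples (SD, n = 4 each), with values of 4.12, 3.48, 3.25 and 3.11 in inflamed and 3.52, 3.45, 3.41 and 1.01 in untreated samples. Its other probe set, also too dim to test, went the other way. That probe set averaged 2.20 in inflamed and 3.22 in untreated samples and was lower in 4 of 4 pairs. Adamtsl2, a binder of latent TGF-beta binding protein, was above background on 0 of 4 inflamed and 1 of 4 untreated arrays.

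The proteins that act with the family went both ways. Among 8 tested inhibitors and clearance receptors, 2 were higher and 2 lower, with a median change of -0.54. The shares over all tested genes were 3.91% higher and 3.02% lower. Timp1 was above background on 4 of 4 inflamed and 0 of 4 untreated arrays. Sdc4, a heparan sulfate proteoglycan that can hold ADAMTS proteases at the cell surface, averaged 11.72 in inflamed and 9.84 in untreated samples and rose by 1.88 ± 0.20 (SE; limma adjusted p = 0.00114). Timp4 averaged 3.98 in inflamed and 8.00 in untreated samples, with 2 of 4 inflamed arrays above background, and its measured level fell by 4.02 (0.00741). Timp2 fell by 0.88 (0.0129). Timp3, the tissue inhibitor best known for acting on ADAM17, ADAMTS4 and ADAMTS5 and named for that reason outside the rule, averaged 11.76 ± 0.07 in inflamed samples and 12.04 ± 0.21 in untreated samples (SD, n = 4 each; 0.183).

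Of 14 tested genes for ADAM maturation and trafficking, 0 were higher and 1 lower in limma (median change -0.06), where 3.91% of all tested genes were higher and 3.02% lower. An unadjusted p under 0.05 was found for 4 of these 14 genes, against 22% of all tested genes. The convertase Pcsk6 fell by 2.13 (limma adjusted p = 0.0122). Furin, which removes the inhibitory prodomain of many family members, averaged 9.80 in inflamed and 9.01 in untreated samples and did not pass (0.125), and neither did the convertase Pcsk5 (0.106) or Tspan15, a tetraspanin that escorts ADAM10 (0.139). Of 30 tested genes for surface proteins known as ADAM10 or ADAM17 substrates, 6 were higher and 4 lower (median -0.32). Icam1 rose by 1.53 ± 0.19, the macrophage growth factor Csf1 by 3.94 ± 0.61 and thrombomodulin, Thbd, by 1.13 ± 0.20 (SE), while the VEGF receptor Kdr fell by 1.71. Kdr and Tie1, both among the lower genes, belong to the pan-endothelial markers below as well, as do Tek and Cdh5. Lyve1 and Flt4 are listed both here and among the lymphatic markers.

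Of 20 tested genes for matrix substrates of ADAMTS proteases, 3 were higher and 2 lower (median 0.16), where 3.91% of all tested genes were higher and 3.02% lower. Vcan, which encodes versican, stood at 7.70, 9.80, 9.46 and 10.62 in inflamed samples, against 6.54, 4.50, 4.00 and 5.63 in untreated samples. The groups did not overlap, and Vcan rose by 4.23 ± 0.72 (SE; limma adjusted p = 0.0094). Acan, which encodes aggrecan, the other classical substrate, was named outside the rule and averaged 9.45 ± 1.47 in inflamed samples and 9.70 ± 1.38 in untreated samples (SD, n = 4 each; 0.593). The basement membrane gene Nid1 rose by 1.09 ± 0.19 and the collagen-binding proteoglycan Lum by 1.49 ± 0.29, while Nid2 fell by 2.23. Of 14 tested microfibril partners of the ADAMTSL proteins, 1 was higher and 2 lower (median -0.75). Efemp1 rose by 4.24 ± 0.83, with 2 of 4 untreated arrays above background, and the elastic fibre genes Fbln5 and Ltbp4 fell by 2.30 and 0.87. Fbln2 averaged 5.87 in inflamed and 7.61 in untreated samples (0.0992). For the 4 tested genes of sugar transfer to thrombospondin repeats, Pofut2, B3glct, Dpy19l1 and Dpy19l3, 0 passed in limma and 0 had an unadjusted p under 0.05.

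Markers of other cells differed between the groups in some lists, higher in some and lower in others. The counts in each list stand beside 3.91% higher and 3.02% lower among all tested genes. Of 13 tested fibroblast markers 3 were higher and 0 lower, and their summed signal was 11939 to 29442 in inflamed and 4661 to 22662 in untreated samples, higher in 4 of 4 pairs. Lum belongs to this list as well as to the matrix substrates. Of the 13 neutrophil markers on the array, 3 were bright enough to test and all 3 were higher. The filter takes the mean over all 8 arrays, so a marker dim in untreated samples could enter through the inflamed samples alone. Summed signals over the 13 markers were 2035 to 3294 in inflamed and 220 to 671 in untreated samples, and Ltf was above background on no array. Of 9 tested monocyte and macrophage markers 2 were higher. Their summed signal was 799 to 2810 in inflamed and 523 to 1133 in untreated samples, higher in 3 of 4 pairs. Of 11 tested keratinocyte markers 4 were lower. Their summed signal was 245 to 1489 in inflamed and 1153 to 5149 in untreated samples, higher in 1 of 4 pairs. Of 14 tested chondrocyte markers, Acan among them, 0 passed in limma and 2 had an unadjusted p under 0.05, against 22% of all tested genes. Their summed signal was 2092 to 11037 in inflamed and 2700 to 12110 in untreated samples, higher in 0 of 4 pairs. In the lists for pericytes and smooth muscle (6 tested) and T cells (3 tested), 0 passed in limma, with 1 and 0 at an unadjusted p under 0.05. The lymphatic markers Prox1, Pdpn, Mmrn1 and Nrp2 were above background on all 8 arrays, yet of 8 tested lymphatic markers 4 were lower and 0 higher. Their summed signal over the 9 markers on the array was 12278 to 21255 in inflamed and 22938 to 29765 in untreated samples, without overlap and lower in 4 of 4 pairs. Of 12 tested pan-endothelial markers 4 were lower and 1 higher, and their summed signal, 6613 to 13286 in inflamed and 10075 to 17152 in untreated samples, was also lower in 4 of 4 pairs. For Gapdh, the log2 ratio of 3' over 5' probe sets ran from 2.58 to 3.30 in inflamed and from 3.40 to 4.16 in untreated samples, without overlap. For Actb the same ratio ran from -0.12 to -0.01 in inflamed and from -0.15 to -0.00081 in untreated samples, so the groups overlapped. The part of any of these in the changes of the ADAM and ADAMTS genes was not tested.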

How the data were processed

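RNA of lymphatic endothelial cells was amplified isothermally to single-stranded cDNA and hybridised to 8 single-colour arrays, per the labels' protocols. The authors deposited a linear intensity for each probe set on each array, made with MAS5 per the submitters' processing notes. The sources used here do not give its version or scaling target. Of 45101 probe sets, 64 were controls, 34945 named 1 gene in GEO's platform annotation, 932 several and 9160 none. Those naming several genes were left out, and 5 of them name a member together with another gene.

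The medians of the arrays lay within 0.468 of each other in log2 signal, so the deposited scaling was kept without a pseudocount. Probe sets with a mean under the median of all (3.30) were left out, and the probe set with the highest mean stood for a gene. limma 3.58.1 in R 4.3.3 fitted all 10843 genes in a two-sided test with an intensity trend and pairs as fixed blocks, with the Benjamini-Hochberg adjustment over all genes. All adjusted p-values come from limma. The fit was tested on simulated data. SEs are moderated and SDs are over 4 samples. With 3 residual degrees of freedom, the number of arrays limits the precision. P-values refer to pools of 3 mice.

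The pairing comes from the design text. Within pairs 1 to 4, the deviations of both samples from their group means had correlations of 0.16, -0.00, 0.08 and 0.03. The background limits were chosen after the values were seen. Where every array of a group is under background, a bound ("at least") divides the brighter group's mean by the dimmer group's mean background limit.

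Members, branches and gene lists were chosen with earlier results of these data known. Values are given for each member past the threshold and for the 4 members of each group with the highest mean, the rest by range and count, and of each related list up to 4 members with the smallest p. Alternatives covered normalization, a floor, the filter, the choice of probe set, the trend, the pair block and leaving out each pair.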

Additional observations from a re-analysis of the deposited data

Results flagged for a closer look

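In 26 groups of 4 samples, 2 held a sample set apart from the other 3 by most of the group's range, where chance alone flags about 1 in 20 groups. Adam17 in inflamed sample 4 had a log2 signal of 7.15, against 9.05 to 9.16 in the other inflamed samples. Adamtsl5 in untreated sample 4 had a log2 signal of 1.01, under background, against 3.41 to 3.52 in the other untreated samples.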

How the results depend on the processing

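The calls for Adam9, Adamts1, Adamts4, Adamts5 and Adamts15 were the same under median centring, quantile and cyclic loess normalization, no filter and the mean over probe sets. Median centring shifted the median over all genes to 0.22, against -0.09, and gave 719 higher and 227 lower genes, 76% of them higher against 56.4%. Without the intensity trend 94 genes were higher and 47 lower, and the counts were 0 for ADAM genes, 1 higher and 0 lower for ADAMTS genes, and 1 higher and 1 lower for the related lists, against 12 and 11. The stricter filter left 0 ADAMTS genes lower. The ADAM genes lower rose in number to 1, Adam22, on log2(signal + 16), with no replicate block and with the replicate block as a random effect. Of the related genes 7 were lower under median centring. Leaving out 1 pair in turn gave 208 to 306 genes higher and 126 to 198 lower, 2 to 3 ADAMTS genes higher and 0 to 1 lower, and 5 to 10 related genes higher and 4 to 7 lower. Adam9, Adamts1 and Adamts4 passed each time. The cause of these shifts was not tested.

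Signs turned for members that had not passed. Leaving out 1 pair, Adam15 ran from -0.13 to 0.97, and it was -0.10 in another probe set, and Adam17 was -0.41 in another probe set. Adam19 was -0.19 as the mean over probe sets, -0.32 to 0.63 with 1 pair left out (-0.26 without pair 4) and -0.42 in its other probe set. With 1 pair left out, Adam23 ran from -0.26 to 0.56 (-0.13 without pair 2) and Adamts10 from -1.25 to 0.49. Adamts16 was 0.024 under median centring, 0.037 under quantile and 0.065 under cyclic loess normalization, and ran from -0.75 to 0.063 with 1 pair left out. Adamtsl1 was -0.39 in another probe set. Testing each probe set on its own and leaving samples out of the bounds were added after the data were seen. With 1 inflamed sample left out, the bound for Adam8 ran from 1.35 to 3.13-fold and that for Adamts8 from 1.56 to 2.02-fold. Signals near background limit what can be read from the 25 dim members.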
